A study of Rattus norvegicus with 108 samples.

Results

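Astrocytes of the rat ventral dentate gyrus were compared between animals given fluoxetine and animals given water. The venDG table held no cell type names, so astrocytes were chosen by a marker rule. A cell was taken when at least 3 of 6 astrocyte genes (Slc1a3, Slc1a2, Gja1, Aqp4, Aldoc and Ntsr2) were detected and at most 1 of 10 genes of other cells (Cx3cr1, P2ry12, Csf1r, Cldn5, Flt1, Mog, Mag, Pdgfra, Cspg4 and Gad1). The rule took 193 of 2058 ventral cells, 137 from fluoxetine and 56 from water, out of 3517 cells in the whole series. The 16 genes of the rule are therefore given as a description only.

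All rats were male and 2 months old when treatment began. The FT group received fluoxetine, a selective serotonin reuptake inhibitor, at 18 mg per kg body weight for 6 weeks, and the Sham group received water for the same time. The dorsal (dorDG) and ventral (venDG) dentate gyrus were punched from fresh brains and profiled with 10x Genomics 3′ droplet sequencing, in which each cell's RNA molecules are counted by unique molecular identifiers (UMIs). The labels number 5 replicates per group, and each replicate pooled tissue of several animals, so no value belongs to a single rat.

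Astrocytes clear glutamate and potassium from the synaptic space, carry water at the vessel wall, supply cholesterol in lipoproteins and pass lactate to neurons. In the dentate gyrus they share their transcription programme with radial-glia-like stem cells, and Slc1a3, Aldoc and Gfap are read in both. Astrocytes also carry serotonin receptors and monoamine oxidase.

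Several libraries stood apart and bear on what follows. Replicates 1 and 2 were run in more than 1 droplet reaction. The second reaction by name of these replicates gave 50 astrocytes, 46 of which (92%) had under 2% of their UMIs from cytosolic ribosomal protein genes, against 35 of 143 (24.5%) in the other reactions. The study describes suspensions of cells and of nuclei, and neither the methods nor the labels say which reaction held which, so a difference between reactions and a difference between kinds of suspension cannot be told apart. In a further 2 Sham astrocytes, 1 each in replicates 2 and 3, most UMIs came from hemoglobin genes. All 177 cells of the second reaction of venDG FT replicate 2 carried Arhgap28. Of the 193 barcodes, 2 occurred in another reaction as well.

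The cells were unevenly spread over the replicates. FT replicates 1 to 5 gave 21, 56, 30, 16 and 14 astrocytes, and Sham replicates 1 to 5 gave 32, 6, 2, 8 and 8. Sham replicate 3, with 2 cells, was below the minimum of 5 and entered no test on gene expression, which left 5 FT and 4 Sham replicates. The summed counts per tested replicate ranged from 21593 to 209881 UMIs. A cell held 2466 UMIs and 1341 genes at the median, with a range of 642 to 18976 UMIs.

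Beyond the genes of the rule, the cells carried the transcripts of astrocytes. Gfap, the intermediate filament of astrocytes, was detected in 78.8% of them and in 26.9% of the other ventral cells. S100b, a calcium-binding protein, was detected in 89.6% against 57.3%, and Mlc1, a membrane protein of astrocyte endfeet, in 65.8% against 9.01%. By contrast Sox9, Aldh1l1 and Fgfr3 were seen in 3.11%, 3.11% and 2.59% of the astrocytes. The other cells had a median of 3499 UMIs, so the lower shares there did not go with shallower cells.

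The 15 genes with the highest ratio of astrocyte to other ventral UMIs per 10000 were Btbd17, Trh, Mlc1, Gja1, Cxcl14, Aqp4, Agt, Entpd2, Igsf1, Ntsr2, Id4, Slc14a1, Metrn, Ndrg2 and Pdlim4, at ratios from 33.5 down to 16.4. Gja1, Aqp4 and Ntsr2 are genes of the rule. Agt encodes angiotensinogen, Entpd2 an enzyme that degrades extracellular ATP, and Metrn a secreted glial factor. Trh, the precursor of thyrotropin-releasing hormone, is not an astrocyte gene, and 96 of its 97 UMIs lay in 1 cell of FT replicate 2. The other 14 genes were found in 45 to 169 of the 193 cells.

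Cells near the border of the rule were less clearly astrocytes. The 36 astrocyte markers outside the rule summed to 595 UMIs per 10000 in all 193 cells. They summed to 211 in the 65 cells with 3 of the 6 rule markers, 493 in the 48 with 4, 866 in the 50 with 5 and 1013 in the 30 with all 6. Just outside the rule, the 101 cells with 2 of the 6 markers gave 260 and the 76 cells with at least 3 markers but 2 genes of other types gave 188. All 1865 ventral cells outside the rule together gave 273. The 3-marker cells thus lay at the level of cells outside the rule on this list, while their Gfap was detected in 61.5% against 43.6% of the 2-marker cells.

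Pooled over cells, the groups differed in how firmly their cells met the rule, which was not tested over replicates. In FT, 39 of 137 cells (28.5%) had only 3 rule markers, and in Sham 26 of 56 (46.4%). In FT replicates 1 to 5 these were 8 of 21, 15 of 56, 6 of 30, 6 of 16 and 4 of 14. In Sham replicates 1 to 5 they were 15 of 32, 4 of 6, 1 of 2, 3 of 8 and 3 of 8. In this count of 3-marker cells the replicates of the groups overlapped. A gene of another cell type was detected in 27.0% of FT and 60.7% of Sham cells. For this share the replicates did not overlap, and every Sham replicate lay above every FT replicate. Its part in the differences between FT and Sham given below was not tested. At least 3 of 8 neuronal genes (Snap25, Syt1, Rbfox3, Stmn2, Syp, Nrgn, Slc17a7 and Grin2b) were detected in 19 FT cells (13.9%) and 21 Sham cells (37.5%), 9 of the former in FT replicate 1 and 17 of the latter in Sham replicate 1. No doublet caller was run, so doublets and free RNA were not separated from astrocytes with such transcripts.

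The share of ventral cells that met the rule was 9.25%, 14.6%, 8.75%, 9.09% and 11.8% in FT replicates 1 to 5 and 9.67%, 3.41%, 4.76%, 3.98% and 13.6% in Sham replicates 1 to 5. Sham replicates 2, 3 and 4 lay below every FT replicate and Sham replicate 5 lay above all but 1. The means were 10.7% ± 2.49 (SD, n = 5) and 7.08% ± 4.39 (SD, n = 5), a difference within the spread between replicates (two-sided exact permutation test, p = 0.143, Benjamini-Hochberg adjusted p = 0.667 over 7 values). Without Sham replicate 5 the difference grew from 3.61 to 5.23 percentage points (exact permutation p = 0.0476, not adjusted).

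Ribosomal protein transcripts split the cells into a low and a high class at 2% of UMIs. The low class held 81 cells with a median ribosomal share of 0.686%, and the high class 112 cells, where the median was 3.94%. From 1.5% to 2.5% there were 25 cells, and the classes are ranges, not cell types. Low cells made up 71.4%, 19.6%, 20.0%, 31.3% and 35.7% of FT replicates 1 to 5, and 84.4%, 66.7%, 25% and 50% of Sham replicates 1, 2, 4 and 5. Replicate 1 was high in both groups, and the groups overlapped.

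**Figure D1:**
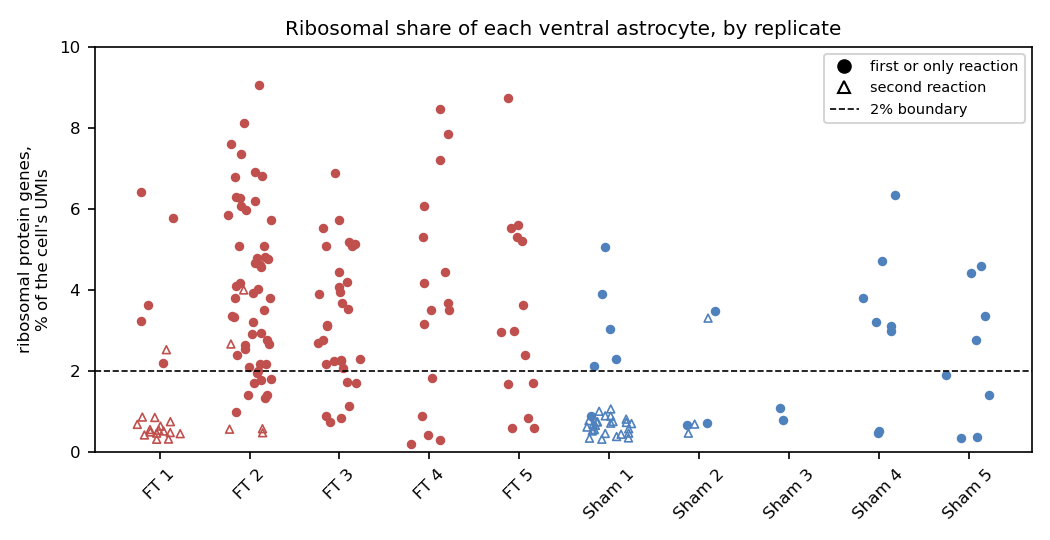
Each symbol is 1 ventral astrocyte, placed by replicate on the x axis and by the percent of its UMIs from 90 cytosolic ribosomal protein genes on the y axis, with FT in red and Sham in blue. Open triangles mark the second reaction of replicates 1 and 2, where 46 of 50 cells lie under the dashed line at 2%.

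Counted over cells, 30.7% of FT and 69.6% of Sham astrocytes were low. Counted over replicates, the means were 35.6% ± 21.2 (SD, n = 5) in FT and 56.5% ± 25.3 (SD, n = 4) in Sham, which did not pass the test (two-sided exact permutation p = 0.198, adjusted p = 0.667). Sham replicate 1, with 26 of its 32 cells from the second reaction, supplied 27 of the 39 low Sham cells. Summed astrocyte markers were lower in the low cells of both groups, though not every astrocyte gene was. Markers outside the rule summed to 206.5 UMIs per 10000 in low and 936.5 in high FT cells, and to 206.0 in low and 684.6 in high Sham cells, with the high class above the low one in 8 of 9 replicates. Apoe stood at 47.3 in low and 243.5 in high FT cells. Slc4a4 was higher in low cells, at 4.32 against 1.90 in high FT cells and 6.19 against 1.08 in Sham. The rule gene Slc1a2 stood at 3.56 in low and 3.36 in high FT cells, and at 7.99 and 2.32 in Sham. Neuronal markers were higher in low cells too, at 90.6 in low against 9.97 in high FT cells and 39.7 against 15.3 in Sham. The low Sham levels include the Sham cells made up mostly of hemoglobin UMIs, which lower every other level per 10000. Sham replicate 3, which entered no test on gene expression, is in that pool too.

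The remaining summaries per replicate overlapped between the groups as well. Ribosomal protein genes took 1.14%, 3.58%, 3.38%, 3.49% and 3.08% of UMIs in FT replicates 1 to 5 and 1.06%, 1.88%, 4.24% and 2.72% in Sham replicates 1, 2, 4 and 5 (means 2.93% ± 1.02 and 2.47% ± 1.36, SD, exact permutation p = 0.571). FT replicate 1 sat with Sham replicates 1 and 2 at the bottom. Nuclear-encoded subunits of oxidative phosphorylation took 2.1% ± 0.704 in FT (SD, n = 5) and 1.57% ± 0.907 in Sham (SD, n = 4; exact permutation p = 0.302). Mitochondrially encoded transcripts took 9.12% ± 2.73 and 7.26% ± 3.15 (exact permutation p = 0.381). Median UMIs per astrocyte were 2502 ± 653 and 2349 ± 448 (exact permutation p = 0.762). No adjusted p of the 7 values was below 0.667, and with 5 against 4 replicates the smallest p these tests can give is 0.00794.

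**Figure D2:**
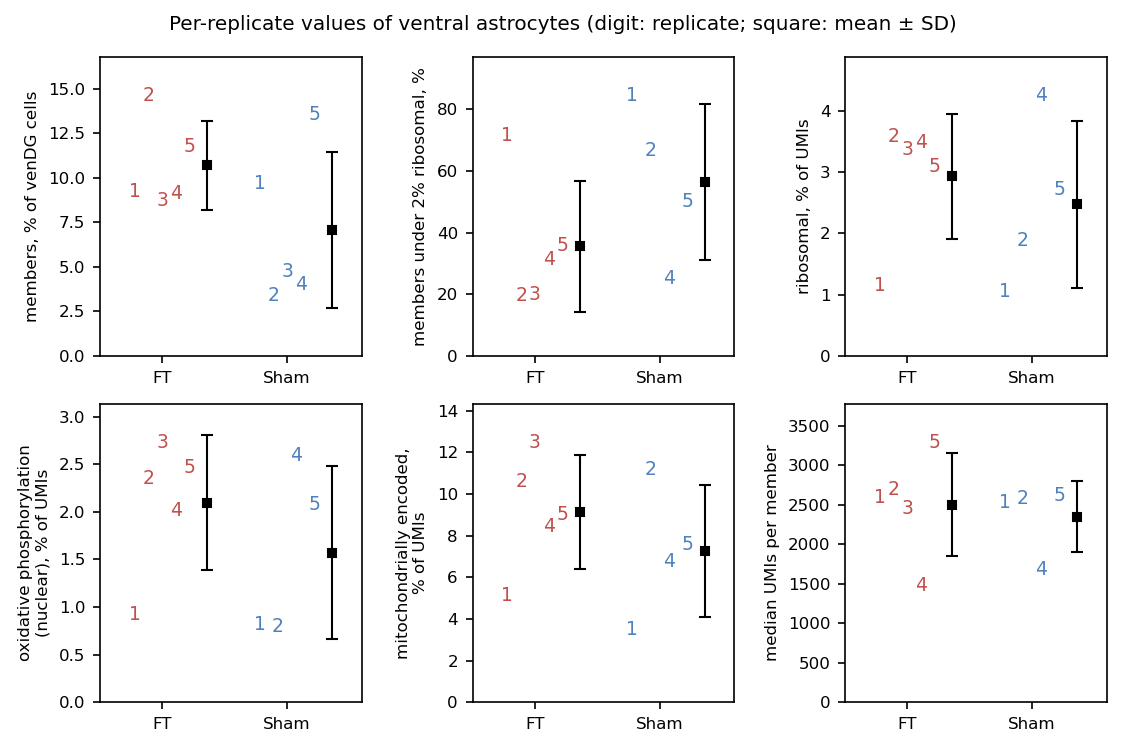
Each digit is a replicate of ventral astrocytes (FT red, Sham blue), with squares for the mean and bars for the SD, over 6 panels: astrocytes as percent of venDG cells, percent of astrocytes under 2% ribosomal UMIs, the ribosomal, nuclear oxidative phosphorylation and mitochondrially encoded percent of UMIs, and median UMIs per astrocyte. Replicate 1 of FT and of Sham lie together at the low end of the 3 UMI shares.

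The question here was which genes differed between FT and Sham astrocytes. Counts were summed per replicate, and edgeR's quasi-likelihood test was run on the 4101 genes whose mean level reached 0.5 UMIs per 10000. A call required an adjusted p (Benjamini-Hochberg) no higher than 0.2 together with a log2 fold change of at least 0.32 in size. Outside the rule, 7 of 4094 genes were called (0.171%), 0 higher and 7 lower in FT, and all 7 encode hemoglobin chains: Hbb, Hbb-b1, LOC100134871, Hba2, LOC287167, LOC689064 and Hba1. Unadjusted p was under 0.05 for 177 genes (4.32%).

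The hemoglobin calls came from 1 cell. Hbb, the beta chain, stood at 1.28, 0.905, 0.111, 0.251 and 0 UMIs per 10000 in FT replicates 1 to 5 and at 0.313, 703, 0.463 and 0.394 in Sham replicates 1, 2, 4 and 5. Every replicate but Sham 2 was near 0, and the groups overlapped. Fitted log2 fold changes ran from −8.61 ± 1.57 (SE) for Hbb to −6.37 ± 1.31 (SE) for Hba1, with edgeR adjusted p of 0.00838 and 0.0143. Of the 8268 hemoglobin UMIs in Sham replicate 2, 8257 lay in 1 cell, where they were 78.8% of 10479 UMIs. The other cell of this kind, in Sham replicate 3, held 5556 hemoglobin UMIs of 6562. Each of these cells met the rule with 3 astrocyte markers. Hemoglobin genes are close copies, and reads may be shared among them.

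With both cells left out, a setting chosen after seeing the data, edgeR called 0 of 4230 genes outside the rule, and DESeq2 called 0 with both cells kept, with no adjusted p for 13 genes, the 7 hemoglobin genes among them. At an unadjusted p under 0.05 edgeR then counted 149 genes and DESeq2 77. No gene met the criterion set for named genes, a call together with replicates that do not overlap, and every gene described from here was named for its list or after its values were seen.

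**Figure D3:**
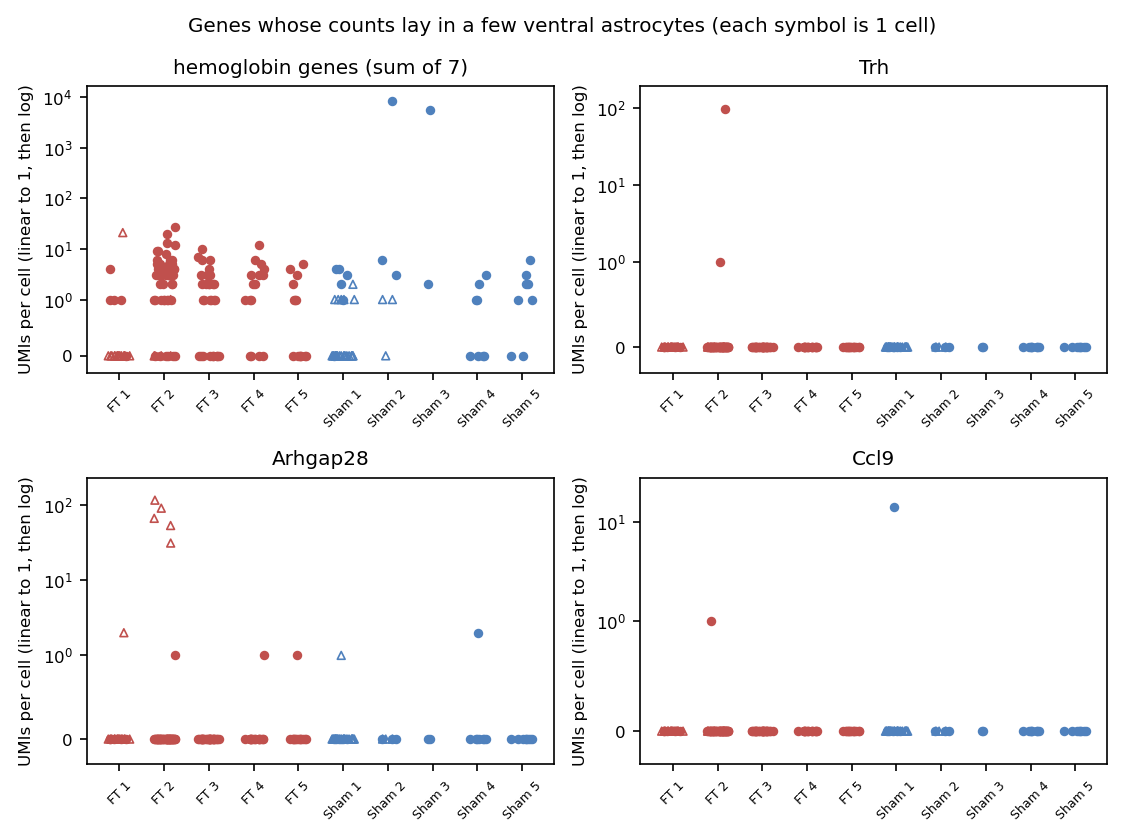
UMIs per cell (y axis, linear to 1 and then log) of 7 hemoglobin genes summed, Trh, Arhgap28 and Ccl9, for each ventral astrocyte by replicate, with FT in red, Sham in blue and open triangles for the second reaction of replicates 1 and 2. The 2 top hemoglobin cells hold 8257 and 5556 UMIs, 1 FT 2 cell holds 96 UMIs of Trh, and 5 FT 2 cells hold 31 to 115 UMIs of Arhgap28.

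Astrocyte markers outside the rule mostly had higher fitted values in FT, and 0 passed the test. Of the 36 listed, 31 were tested, 27 had a log2 fold change above 0, and the median was 0.58 against 0.17 over all 4101 genes. With RLE size factors in place of TMM the 2 medians were 0.35 and −0.01, and 24 of 31 were above 0. Without the hemoglobin-rich cells they were 0.44 and 0.06.

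Gfap stood at 6.39, 41.3, 26.4, 9.54 and 13.6 UMIs per 10000 in FT replicates 1 to 5 and at 10.2, 5.98, 18.1 and 8.67 in Sham replicates 1, 2, 4 and 5. FT replicates 2 and 3 were above every Sham replicate, and FT replicate 1 was among the lowest. The log2 fold change was 1.14 ± 0.62 (SE; 95% interval −0.11 to 2.39, edgeR adjusted p = 0.928). Apoe, the main apolipoprotein of the brain, gave 76.6, 186.0, 232.6, 124.8 and 189.8 in FT and 79.6, 101.7, 154.7 and 219.1 in Sham, with a log2 fold change of 0.42 ± 0.68 (SE). Its lowest replicates were number 1 of both groups, and the ranges nearly coincided.

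The same order of replicates recurred. S100b gave 15.5, 49.9, 55.7, 32.6 and 55.0 UMIs per 10000 in FT and 14.5, 9.85, 41.7 and 52.4 in Sham (log2 fold change 0.77 ± 0.63, SE). Mt3, a zinc-binding metallothionein, gave 16.8, 59.3, 105.6, 48.7 and 64.4 in FT and 15.8, 15.1, 64.4 and 67.4 in Sham (0.82 ± 0.67). Ndrg2 gave 11.8, 33.2, 40.0, 14.8 and 32.2 in FT and 9.70, 9.50, 25.9 and 21.3 in Sham (0.92 ± 0.60). In S100b and Mt3 FT replicate 1 lay with Sham replicates 1 and 2, well below the others, and in Ndrg2 FT replicate 4 lay near them too. FT replicate 1 and Sham replicates 1 and 2 had the largest shares of low-ribosomal cells. The part of the low-ribosomal cells in the group difference was examined with the covariate given further on.

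**Figure D4:**
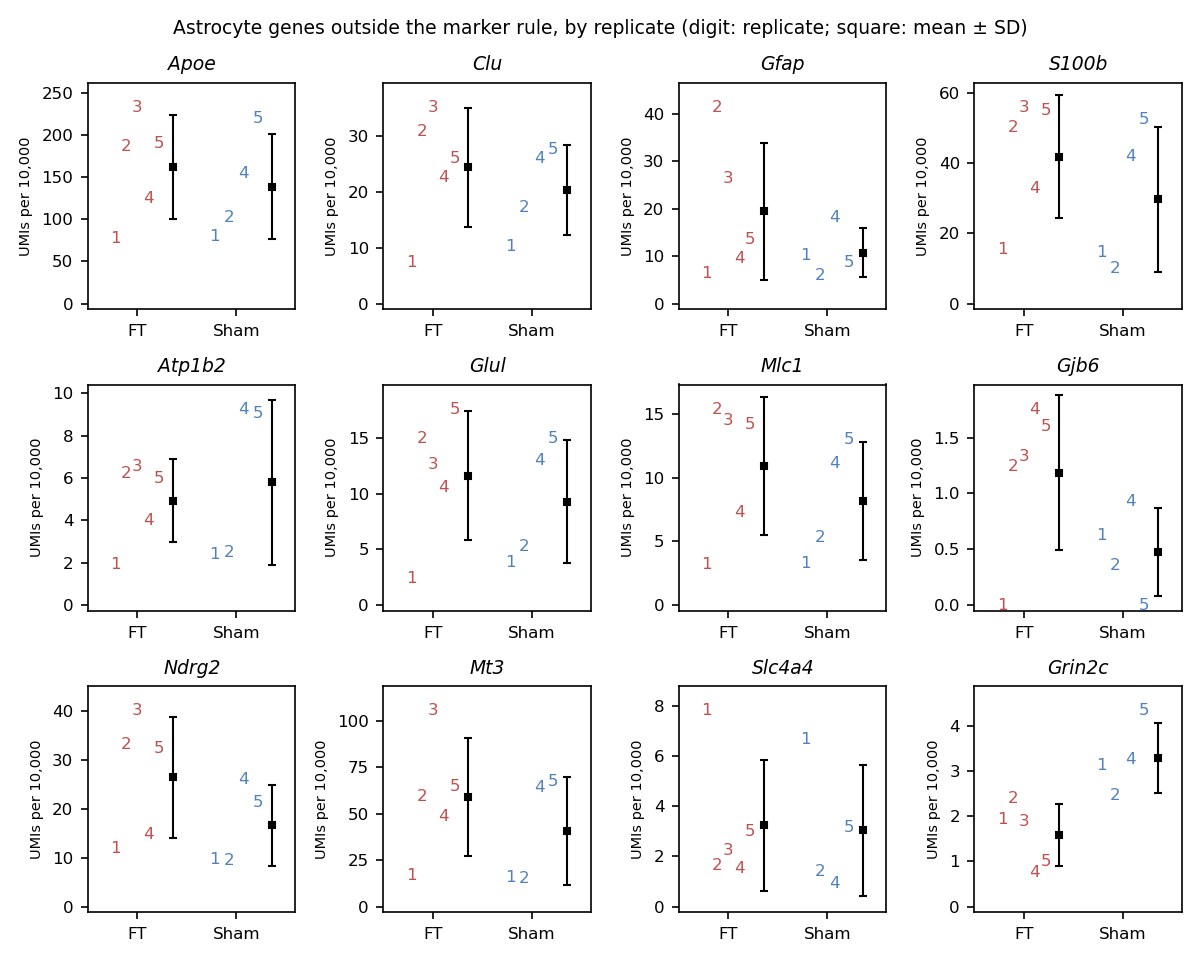
UMIs per 10000 of 12 astrocyte genes outside the rule in ventral astrocytes, with digits for the replicates (FT red, Sham blue) and squares and bars for mean ± SD. FT 1, Sham 1 and Sham 2 lie low together in S100b, Glul, Mlc1, Ndrg2 and Mt3, Slc4a4 is highest in FT 1 and Sham 1, and the groups overlap in every panel but Grin2c, where all FT replicates lie below all Sham replicates.

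For glutamate and GABA handling, 12 genes were tested, 6 were above 0 and 0 were called, with a median log2 fold change of 0.02 (−0.15 with RLE). Glul, glutamine synthetase, gave 2.39, 14.9, 12.6, 10.5 and 17.6 UMIs per 10000 in FT and 3.86, 5.28, 13.0 and 15 in Sham (0.57 ± 0.59, SE). Of the rule's own glutamate transporters, Slc1a3 averaged 28.3 ± 10.1 UMIs per 10000 in FT (SD, n = 5) and 19.0 ± 9.70 in Sham (SD, n = 4), and Slc1a2 3.92 ± 1.78 and 4.54 ± 3.26.

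Genes of potassium, water and pH balance and of coupling between astrocytes had a median log2 fold change of 0.41 over 14 tested genes, 10 of them above 0 (0.18 and 8 with RLE) and 0 called. Atp1b2, a sodium pump subunit of astrocytes, gave 0.07 ± 0.57 (SE). Gjb6, the gap junction protein connexin 30, gave 1.36 ± 0.76 on 53 FT and 9 Sham UMIs. Slc4a4, a sodium bicarbonate cotransporter, did not follow the replicate order of S100b and Mt3. It gave 7.82, 1.62, 2.22, 1.51 and 3 UMIs per 10000 in FT and 6.67, 1.41, 0.926 and 3.15 in Sham, highest in replicate 1 of both groups. Its log2 fold change was 0.05 ± 0.60 (SE).

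Among lipoprotein and cholesterol genes 23 were tested, 17 were above 0, and the median was 0.58 (0.38 with RLE). Abca1, which exports cholesterol, gave 0.639, 0.191, 0.111, 0.502 and 0 UMIs per 10000 in FT and 1.36, 0.352, 0.463 and 1.18 in Sham (log2 fold change −1.64 ± 0.72, SE, edgeR adjusted p = 0.928), on 11 and 18 UMIs. The enzyme genes of cholesterol synthesis Hmgcs1, Cyp51 and Msmo1 gave 1.05 ± 0.62, 1.10 ± 0.58 and 1.11 ± 0.61 (SE). Fdft1, squalene synthase, had every FT replicate above every Sham replicate, at 0.958, 0.619, 0.779, 1.26 and 1 UMIs per 10000 against 0.104, 0.352, 0 and 0.394. These are 36 FT and 3 Sham UMIs, and Fdft1 did not pass the test (edgeR adjusted p = 0.928).

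For glycolysis, glycogen and lactate, 20 of 21 tested genes were above 0 (18 with RLE), with a median of 0.71 (0.50 with RLE) and 0 called. Gapdh and Pkm gave 0.96 ± 0.60 and 0.96 ± 0.61 (SE), and glycogen phosphorylase Pygm gave 1.24 ± 0.66. Slc2a1, the glucose transporter of vessels and astrocytes, gave 1.76, 1, 2.11, 6.53 and 1 UMIs per 10000 in FT and 0.730, 1.41, 0.926 and 0 in Sham (1.65 ± 0.71, SE). FT replicate 4 stood alone at the top, and it also held the most endothelial and mural transcripts (17 genes, 1 of them at 0 in every cell, 43.4 UMIs per 10000 against 5.34 to 17.2 in the other FT replicates and 7.88 to 29.2 in Sham). The endothelial part in this value was not tested.

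Receptors for transmitters and purines had a median of 0.18 over 17 tested genes, at the level of all genes, with 12 above 0 (0.05 and 10 with RLE) and 0 called. Grin2c, an NMDA receptor subunit found in astrocytes, had every FT replicate below every Sham replicate: 1.92, 2.38, 1.89, 0.753 and 1 UMIs per 10000 against 3.13, 2.46, 3.24 and 4.33. Its log2 fold change was −0.81 ± 0.54 (SE, 95% interval −1.91 to 0.29), and it did not pass the test (edgeR adjusted p = 0.928). The study reported Grin2c as higher with fluoxetine in bulk tissue of several brain regions, a measure over all cell types. Of the serotonin receptors, Htr2a gave 1.6, 5.10, 4.78, 2.51 and 3 in FT and 1.46, 5.98, 2.78 and 1.58 in Sham (0.33 ± 0.61, SE), with overlapping groups. Htr4 and Htr7 gave 0.56 ± 0.68 and 0.77 ± 0.92 (SE) on 38 and 24 FT and 12 and 7 Sham UMIs. Maoa, which degrades serotonin, gave −1.12 ± 0.81 (SE) on 14 UMIs in each group.

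Replicates did not overlap for 44 of 4094 genes higher in FT (1.07%) and 8 genes lower (0.195%), and 0 of these 52 (1.27%) were called. Within the lists, Fdft1 and the neuronal gene Nrgn were of the former kind and Grin2c of the latter. Nrgn rests on 32 FT and 6 Sham UMIs.

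The precision of these replicates bounds what could be seen. The 95% interval of a log2 fold change had a median half-width of 1.33 over all genes and 1.21 over the 31 astrocyte markers. For 28 of those 31 markers the interval reached 1, so a 2-fold higher level in FT lay within it.

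The comparison was then made at an equal share of low-ribosomal cells, by adding that share per replicate to the model. Here 0 of 4094 genes outside the rule were called by edgeR (0%) and 256 had an unadjusted p under 0.05. DESeq2 called 0 as well. The astrocyte markers lost their offset: their median log2 fold change went from 0.58 to 0.00, with 16 of 31 above 0, while the median of all genes stayed at 0.15. Gfap went from 1.14 to 0.23 ± 0.58 (SE), Apoe from 0.42 to −0.19 ± 0.78, Glul from 0.57 to −0.39 ± 0.48 and Mt3 from 0.82 to −0.15 ± 0.61. Grin2c kept −0.88 ± 0.49, and Slc4a4 went from 0.05 to 0.99 ± 0.47.

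The list of cytosolic ribosomal protein genes had 63 of 66 above 0 without the covariate (47 with RLE) and 17 of 66 with it, at medians of 0.50 and −0.22. The covariate is made from these genes, so their drop is no result. Nuclear genes of oxidative phosphorylation went from 68 of 70 above 0 (64 with RLE) to 36 of 70, at medians of 0.67 and 0.02, and glycolysis from 20 to 16 of 21, at 0.71 and 0.25. Mitochondrial translation genes went from 0.54 to −0.03. Receptors went the other way, from 0.18 to 0.69 with 13 of 17 above 0, and synapse organisers and adhesion genes from 0.13 to 0.55 with 23 of 27 above 0. Immediate early genes, which dissociation induces, went from 0.34 to −0.61.

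**Figure D5:**
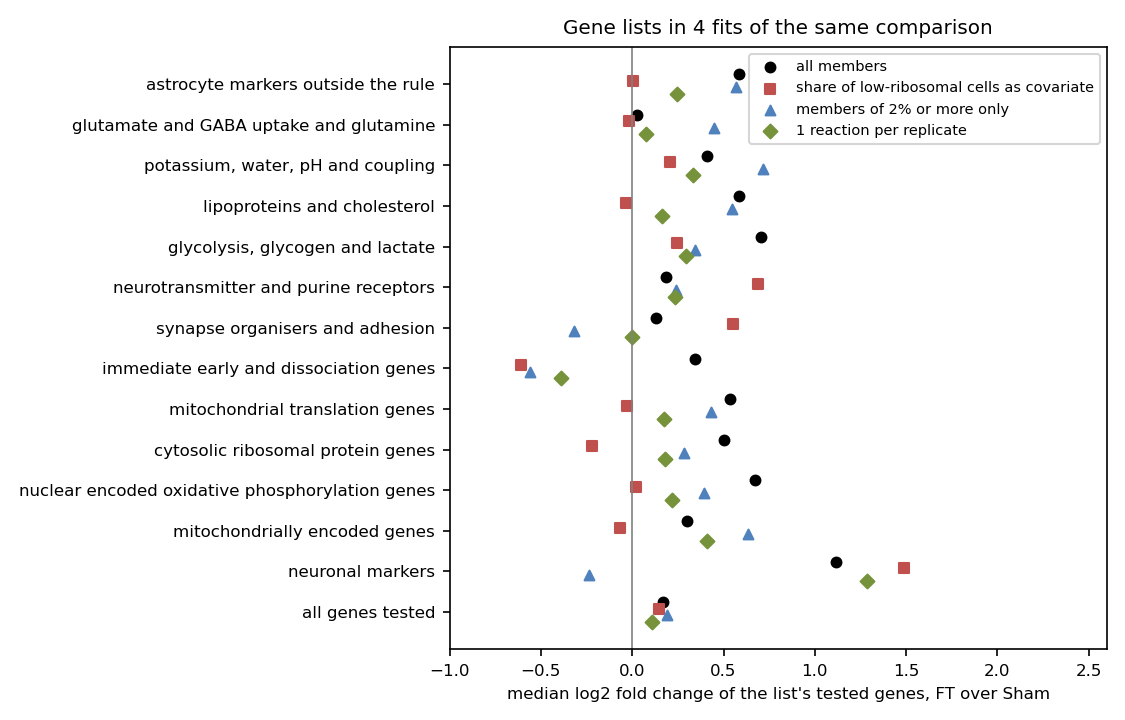
Median log2 fold change (FT over Sham, x axis) of the tested genes of each list (y axis) in ventral astrocytes, for all cells, with the share of low-ribosomal cells as a covariate, in cells of 2% or more only, and with 1 reaction per replicate. For astrocyte markers the 4 medians are 0.58, 0.00, 0.57 and 0.25, and for neuronal markers 1.12, 1.49, −0.24 and 1.28.

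Within the high class, 5 FT and 2 Sham replicates had at least 5 cells, and edgeR called 2 of 3475 genes outside the rule (0.0576%), Ccl9 and Il1b, both lower in FT (adjusted p = 0.0146 and 0.162). These are a chemokine and a cytokine, and 1 cell of Sham replicate 1 held 14 of the 15 Ccl9 UMIs and 18 of the 46 Il1b UMIs among the astrocytes. DESeq2 called 0 and counted 85 genes at an unadjusted p under 0.05, against 214 by edgeR. The median of the astrocyte markers was 0.57 in this class, beside 0.19 over all genes. High Sham cells numbered 17, of which the fit used 5 of replicate 1 and 6 of replicate 4. Pooled over all cells of a class, Gfap stood at 37.7 UMIs per 10000 in high FT and 14.1 in high Sham cells. In the low class it stood at 8.76 and 7.65. These pooled levels are a description without a spread between replicates. FT replicate 2, the highest in Gfap over all its astrocytes, gave 45 of the 95 high FT cells. Both ways of matching rest on few Sham cells.

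Within the low class only Sham replicate 1 reached 5 cells, so no test was run there as planned. With the minimum lowered to 2 cells and the hemoglobin-rich cells left out, both chosen after seeing the data, edgeR called 33 of 4775 genes outside the rule (0.691%), 32 of them higher in FT. Trh, Scg5, Resp18 and Ddc led them. The first 3 belong to peptide-secreting cells and Ddc makes dopamine and serotonin. The carrying cells are given beside totals over all astrocytes, of both classes. A single low FT replicate 5 cell held 29 of the 80 Scg5 UMIs and 18 of the 44 Ddc UMIs. A low FT replicate 2 cell held another 21 Scg5 UMIs, and a different one held 96 of 97 Trh UMIs. The cells next in Ddc, with 7, 5, 5 and 3 UMIs, were of the high class and not in this fit. Neuronal markers (26 genes, 1 at 0 in every cell) had a median log2 fold change of 1.95 in the low class over 16 tested genes, beside 0.29 over all genes.

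Neuronal transcripts were the list with the highest median over all astrocytes too. All 16 tested neuronal markers were above 0, with a median of 1.12 (0.96 with RLE), and 0 were called. Summed over the list they stood at 73.0, 36.6, 19.2, 32.9 and 38.2 UMIs per 10000 in FT replicates 1 to 5 and at 45.3, 14.1, 15.3 and 15.8 in Sham replicates 1, 2, 4 and 5. Replicate 1 was the highest in each group. Syt1, a synaptic vesicle protein, gave 15.5 in FT replicate 1 and 2.38 to 4.27 in the other FT replicates. The part of neuronal RNA in the receptor and synapse lists was not tested.

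Transcripts of other glia were below their level in the remaining ventral cells. The rule admitted at most 1 gene of other cells, so this follows from the selection and is a description only. Microglial markers (16 genes, 1 at 0) summed to 3.19 to 12.3 UMIs per 10000 in FT and 5.98 to 9.80 in Sham, against 75.5 in the other ventral cells. Oligodendrocyte markers (16 genes) summed to 20.4 to 36.9 in FT and 30.3 to 95 in Sham, where Sham replicate 2 was the highest. Mobp, a myelin protein, gave 18.7 in that replicate and 2.5 to 4.63 in the other Sham replicates, beside 1.19 to 3.51 in FT (log2 fold change −1.78 ± 0.62, SE, edgeR adjusted p = 0.928). Its oligodendrocyte part was not tested.

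Arhgap28, a GTPase activating protein, was found in every cell of 1 reaction. In the second reaction of venDG FT replicate 2 it made up 271.6 UMIs per 10000 over 177 of 177 cells of every kind, against 0.0874 to 0.954 in the other reactions of both regions. The 5 astrocytes of that reaction held 115, 90, 66, 53 and 31 UMIs. Over all astrocytes Arhgap28 gave 0.319, 17.0, 0, 0.251 and 0.2 UMIs per 10000 in FT and 0.104, 0, 0.926 and 0 in Sham. Its log2 fold change was 4.48 ± 1.33 (SE) and was not called (edgeR adjusted p = 0.748). It was called higher in FT where genes of low mean were kept (adjusted p = 4.32e-05), where replicates with at least 1 cell were kept (0.000215), with cells thinned to 1500 UMIs (0.0930), without cells of 3 or more neuronal genes (0.152) and without FT replicate 1 or 3 (0.170 and 0.196). Among the low-ribosomal cells it was called with at least 2 cells per replicate (adjusted p = 0.0112), and also when the hemoglobin-rich cells were left out (0.122). Without FT replicate 2, or with 1 reaction per replicate, it was below the filter on low genes. Trh was likewise tied to a replicate: it gave 130 UMIs in the first venDG reaction and 81 in the first dorDG reaction of FT replicate 2, beside 0 or 1 in every reaction of the other replicates.

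Dorsal astrocytes taken by the same rule were the nearest comparison. The rule took 107 dorDG cells, of which the authors had named 66 AstroSub1, 22 BergGlia, 10 InhibNeuron, 3 Endothelial, 3 ExcitNeuron and 1 each Granule, Mossy and OPC. With 4 FT and 3 Sham dorsal replicates of at least 5 cells, edgeR called 0 of 4140 genes in dorDG and 0 of 4075 for the difference between regions in the FT effect, with 145 of the latter at an unadjusted p under 0.05. DESeq2 also called 0 for that difference (83 under 0.05).

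Side by side, the astrocyte markers had a median log2 fold change of 0.58 in venDG and 0.41 in dorDG, with 25 of 31 above 0 in dorDG. Gfap gave 1.14 ± 0.62 and 0.86, and the difference between regions was 0.24 ± 0.92 (SE). Neuronal markers differed in sign, with a median of 1.12 and 16 of 16 above 0 in venDG and −1.33 and 0 of 18 above 0 in dorDG. In the test of the difference 9 of them had an unadjusted p under 0.05 and 0 passed. The dorsal cells that the authors named as neurons were unevenly split between the groups, counted over all dorsal replicates. InhibNeuron had 1 FT and 9 Sham cells, ExcitNeuron 1 and 2, Granule 0 and 1, and Mossy 1 and 0. The part of these cells in the difference between regions was not tested. Dorsal Sham replicate 1, like the ventral one, held many low-ribosomal cells (77.4% of 31).

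A set of genes was taken from the larger number that the study named. The study chose them on these and related samples, so their direction here is not independent evidence. For a subtype of ventral astrocytes the study reported a higher oxidative phosphorylation score per cell in FT, a measure not computed here. The table held 28 genes of the set, of which 19 could be tested in ventral astrocytes. Of these, 15 were above 0 with a median of 0.49 (14 and 0.35 with RLE), and 0 were called. Rps3, a ribosomal protein, gave 2.08, 5.34, 4.78, 4.52 and 3 UMIs per 10000 in FT and 1.36, 1.76, 2.32 and 1.18 in Sham. Only FT replicate 1 lay within the Sham range. Its log2 fold change was 1.44 ± 0.59 (SE, edgeR adjusted p = 0.928), and 0.88 ± 0.49 at an equal share of low-ribosomal cells.

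The other ribosomal proteins of the set, Rpl18 and Rpl23a, gave −0.05 ± 0.57 and 0.37 ± 0.57 (SE). The respiratory chain subunits Uqcrh, Uqcrq, Ndufv2 and Atp5d gave 0.89 ± 0.59, 0.72 ± 0.61, 0.88 ± 0.72 and 0.88 ± 0.68, and 0.16 ± 0.48, −0.17 ± 0.41, 0.22 ± 0.80 and −0.20 ± 0.56 with the covariate. Ntrk2, the receptor of brain-derived neurotrophic factor, gave 9.10, 10.4, 13.5, 9.79 and 15.2 UMIs per 10000 in FT and 9.38, 3.17, 8.34 and 12.6 in Sham (0.66 ± 0.54, SE). Its groups overlapped, with Sham replicate 2 the lowest.

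Sirt2 and Otub1, a deacetylase and a deubiquitinase, gave 0.60 ± 0.66 and 1.26 ± 0.78 (SE), the latter on 31 FT and 5 Sham UMIs. The stress and activity factors Atf4, Fos and Fosb gave 0.47 ± 0.66, −0.15 ± 0.66 and 0.20 ± 0.83. For these factors the study reported activity scored on their target genes, which was not computed here. Of the transmitter receptors and synaptic genes of the set, Gria2, Gria3, Gabrb1, Cacna1a and Syt1 gave 0.49 ± 0.55, 0.38 ± 0.60, −0.11 ± 0.58, 0.14 ± 0.61 and 0.73 ± 0.59. A further 9 genes were below the filter on low counts.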

How the data were processed

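The deposited venDG and dorDG tables hold unnormalized UMI counts of every gene in every cell, which the authors made with Cell Ranger (rat build rn5 per the labels) and filtered per cell, with Seurat 3 in later steps. The deposited dorDG annotation (other per-cell information) gave cell type names. The authors' log-normalized venDG values were not used. Members, gene lists and tests were chosen with earlier results of these data known. The 170 venDG cells with a second, unexplained suffix on the reaction name were left out (6 meet the rule). Counts of the chosen cells were summed per label replicate, and all 16 replicate pairs within groups differed by more than counting noise, with chi-square values of 1.85 to 17.4 per degree of freedom. Replicates may share litters or handling, so p-values measure only the spread between them.

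Sums with at least 5 cells were tested in edgeR 4.0.16 (R 4.3.3; TMM, quasi-likelihood, Benjamini-Hochberg over all tested genes), with DESeq2 1.42.0 and limma 3.58.1 as alternatives. Standard errors were derived from the fold change and its F statistic. Values per replicate were compared by exact permutation, and UMIs per 10000 are of the summed counts. Intervals use a level of 95%. The scripts were tested on simulated data. Genes were to be named when called without overlap between groups (the 10 highest and 10 lowest), when in a fixed list and called, or when named by the study, with the 15 leading marker genes as description.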

Additional observations from a re-analysis of the deposited data

Results flagged for a closer look

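In 20 of 132 groups of 4 or 5 replicates of ventral astrocytes, 1 replicate lay far from the others by Dixon's test. This count cannot be set against the chance rate of about 1 in 20 groups. The hemoglobin genes, Arhgap28 and Trh were among the groups because their values had been seen. Some genes also stood at 0 in every other replicate, where the test's assumption of normal values does not hold. FT replicate 1 had the lowest ribosomal share (1.14% of UMIs) and the highest Slc4a4, Syt1 and Htr7, at 7.82, 15.5 and 2.55 UMIs per 10000. FT replicate 4 was highest for Slc2a1 (6.53) and Vim (3.77), and FT replicate 2 for Arhgap28 (17.0), Trh (4.62) and LOC287167 (0.0953). Sham replicate 4 had the lowest median UMIs per cell (1680) and the highest Fosb (2.78) and Arhgap28 (0.926). Sham replicate 2 stood apart in Mobp (18.7) and in the hemoglobin genes Hba1 (868.2), Hba2 (474.7), Hbb (703.5), Hbb-b1 (154.5), LOC100134871 (153.8), LOC287167 (21.1) and LOC689064 (533.9). The causes were not tested.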

How the results depend on the processing

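Of the alternatives to the main test, the 7 hemoglobin calls stood with RLE size factors, with the second-suffix cells kept and without ribosomal and mitochondrial genes. DESeq2 called 0, the filter of the study's methods (2 Sham replicates) 0, 1 reaction per replicate 1, and leaving out single replicates 0 (Sham 2) to 12 (FT 1). Added after seeing the data, leaving out the hemoglobin-rich cells called 0, thinning to 1500 UMIs per cell 2, and leaving out cells with 3 or more neuronal genes 8, none of them hemoglobin genes. The replicate block called 3. Same-numbered replicates correlated at 0.64, 0.13, 0.05 and 0.14, and since not all lay above 0.1 the numbers were not taken as pairs. The study states no pairing of its single-cell replicates, replicate 1 was alike in both groups, and not every replicate correlated best with its own number. Under the block the 7 permutation values had p from 0.25 to 0.875 when signs of the paired differences were flipped. With 4 pairs, or 5 for the share of astrocytes, this test cannot give a p under 0.05, so it decides nothing.

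At matched ribosomal share, the ribosomal share of UMIs as the covariate called 1 gene (Trh). Cells of 2% or more gave 0 calls with DESeq2 and at a boundary of 1.5%, and 1 to 6 without single replicates (6 without FT 2). Low cells gave 49 calls with at least 2 cells per replicate and 33 without the hemoglobin-rich cells. The difference between regions gave 6 calls with the low-cell share as a covariate and 0 to 16 without single replicates (16 without dorDG FT 1, 4 without venDG Sham 1 and 4 without venDG Sham 4).

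FT minus Sham changed sign for median genes per cell (−89.7 to 99.2 without single replicates, −69.9 as a mean over cells, −148 with 1 reaction, −6.50 without hemoglobin-rich cells), median UMIs (−70.6 to 408, and −243 as a mean over cells) and the ribosomal share (−0.0137 to 1.05 points). The difference in the share of astrocytes ranged from 2.64 to 5.23 points without single replicates and was 5.78 with 1 reaction. Without Sham 2, under the study's filter, with 1 reaction, without hemoglobin-rich cells, thinned, and without cells of 3 or more neuronal genes, log2 fold changes turned positive: Hba1 1.04, 1.01, 0.63, 0.58, 0.80 and 0.57, Hba2 1.6, 1.41, 1.04, 1.22, 0.90 and 1.43, and LOC689064 1.78, 2.07, 1.32, 1.94, 5.24 and 1.86. Their lowest values without single replicates were −6.98, −7.53 and −7.09. In each of these settings the Sham 2 sum or its hemoglobin-rich cell was left out. Settings with at least 10 cells, a stricter marker rule (at least 4 of the 6 astrocyte and 0 of the 10 other markers) and a 2.5% boundary were not run, since 1 Sham replicate was left in each, nor was the low class with at least 5 cells. Few Sham cells (56) limit every value.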
